A study of Oryctolagus cuniculus with 8 samples.

Results

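Myelin is the lipid-rich sheath that oligodendrocytes wrap around axons in the central nervous system. In most mammals the retina holds no myelin, because axons of ganglion cells are sheathed only after they leave the eye. The rabbit is an exception: bands of myelinated axons, the medullary rays, spread from the optic nerve head over the inner surface of the retina, and retinal astrocytes and the vessels of the retina lie within the same bands. The genes examined here code for proteins of that sheath. They were chosen by name, as a list of 9 (MBP, MOBP, MAG, MOG, CNP, CLDN11, UGT8, MAL and ERMN), and 8 of them were found among the 25666 genes of the table. No row carried the symbol CLDN11, a claudin of the sheath, and it was not analysed here. All 8 genes found passed the filter on low values, 1 FPKM in at least 2 libraries, which left 12204 of 19293 protein-coding genes. MBP, CNP, MOG and ERMN reached 1 FPKM in 8 libraries and MAL in 5, whereas MAG, MOBP and UGT8 reached it in 4 only, so that these genes passed through the libraries in which they were high.

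RNA was sequenced from 8 retinas of wild-type male Chinchilla rabbits aged about 10 months, 2 retinas for each of 4 diets, which were fed for 6 months. Standard chow was the diet of the ND group. To this chow lard (10%) and cholesterol (0.5%) were added for the HFD group, sucrose (40%) for the HSD group, and all of these, with sucrose at 35%, for the HFSD group. The retinas of a diet are called replicate 1 and replicate 2 as in the labels, which do not say whether they came from separate rabbits, nor which part of the retina was taken, so that p values measure only the spread between these libraries.

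Levels are in FPKM, that is, sequenced fragments of a gene per length of its transcript and per depth of the library. They lay on steps of whole fragments, from which the depth of each library, between 15764577 and 22785832 fragments, and the number of fragments behind each value were recovered. These numbers, and the 95% Poisson intervals computed from them, cover counting error only. SAG, the arrestin of rods, was at 2826 to 3820 FPKM in the 8 libraries, which fits the labelled tissue. HSD replicate 2 stood apart, as the 7 skeletal muscle genes found, of 10, summed to 438 FPKM in it, against 1.34 to 3.45 FPKM in the other libraries. The summed level of 9 pigment epithelium genes was higher in both ND retinas (316 and 248 FPKM) than in the others (27.7 to 87.2 FPKM). This sum was led by TTR and RPE65, and TYR, MITF and BEST1 did not follow it. These retinas were bulk samples, in which fewer oligodendrocytes and less RNA per oligodendrocyte cannot be told apart.

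The level of myelin RNA differed more between the ND retinas than between the mean of any diet and that of ND on the log2 scale, and for each of the 8 genes ND replicate 1 was the higher. MBP encodes myelin basic protein, which holds the cytoplasmic faces of compact myelin together. It was at 252 FPKM in ND replicate 1 and 6.55 FPKM in ND replicate 2, from 4474 and 105 fragments. In the HFD retinas MBP was at 172 and 104 FPKM, in the HSD retinas at 4.34 and 4.16 FPKM, and in the HFSD retinas at 4.02 and 41.9 FPKM (replicate 1 first). ND replicate 1, both HFD retinas and HFSD replicate 2 were thus high, and ND replicate 2 lay beside the HSD retinas and HFSD replicate 1.

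MOBP, another basic protein of compact central myelin, was at 11.4 and 0.120 FPKM in ND, 5.62 and 3.35 FPKM in HFD, and 0 and 1.49 FPKM in HFSD. In both HSD retinas and in HFSD replicate 1 MOBP had 0 fragments, which allows up to 0.0451, 0.0412 and 0.0312 FPKM (3 fragments per library). Against the larger of the HSD limits, the ND mean was at least 128-fold higher and ND replicate 1 at least 253-fold. ND replicate 2 held 9 fragments of MOBP and ND replicate 1 held 941.

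MAG, an adhesion protein of the inner sheath that faces the axon, was at 10.7 and 0.137 FPKM in ND, 5.99 and 5.65 FPKM in HFD, 0.0307 and 0.0561 FPKM in HSD, and 0.0425 and 1.78 FPKM in HFSD. In ND replicate 2, both HSD retinas and HFSD replicate 1 these values rest on 5, 1, 2 and 2 fragments, so that differences among these 4 retinas were not detectable at this depth. MOG, a protein of the outer surface of the sheath, was at 22.1 and 10.8 FPKM in ND, 19.7 and 18.6 FPKM in HFD, 10.2 and 9.92 FPKM in HSD, and 7.65 and 11.3 FPKM in HFSD. The order of the retinas was the same as for MBP, but over a narrower range: HFSD replicate 1, the lowest, kept 34.6% of the level of ND replicate 1, and 162 fragments.

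CNP, an enzyme of the cytoplasm-filled channels of the sheath, was at 69.6 and 16.2 FPKM in ND, 50.3 and 36.2 FPKM in HFD, 13.7 and 12.3 FPKM in HSD, and 13.8 and 21.3 FPKM in HFSD. ERMN, a late oligodendrocyte protein bound to the cytoskeleton, was at 28.4 and 2.99 FPKM in ND, 13.0 and 7.22 FPKM in HFD, 2.21 and 1.37 FPKM in HSD, and 1.51 and 6.34 FPKM in HFSD. For both genes the 4 highest retinas were those that were highest for MBP.

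UGT8, which makes galactosylceramide, a main lipid of myelin, was at 6.31 and 0.0784 FPKM in ND, 2.62 and 2.10 FPKM in HFD, 0.0440 and 0.107 FPKM in HSD, and 0.426 and 1.39 FPKM in HFSD. It was the gene in which HFSD replicate 1, at 42 fragments, stood clear of the HSD retinas, with 3 and 8 fragments. Its interval of 0.307 to 0.576 FPKM lay above those of HSD replicate 1 (0.00908 to 0.129 FPKM) and HSD replicate 2 (0.0463 to 0.211 FPKM). MAL, a small membrane protein of lipid-rich membranes that is also made by epithelia, was at 8.57 and 0.729 FPKM in ND, 3.55 and 2.47 FPKM in HFD, 2.32 and 0.249 FPKM in HSD, and 0.566 and 1.23 FPKM in HFSD. MAL departed from the other 7 genes in HSD replicate 1, which lay above HFSD replicate 2, but its values rest on few fragments (17 against 9, and 78 at most).

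**Figure D1:**
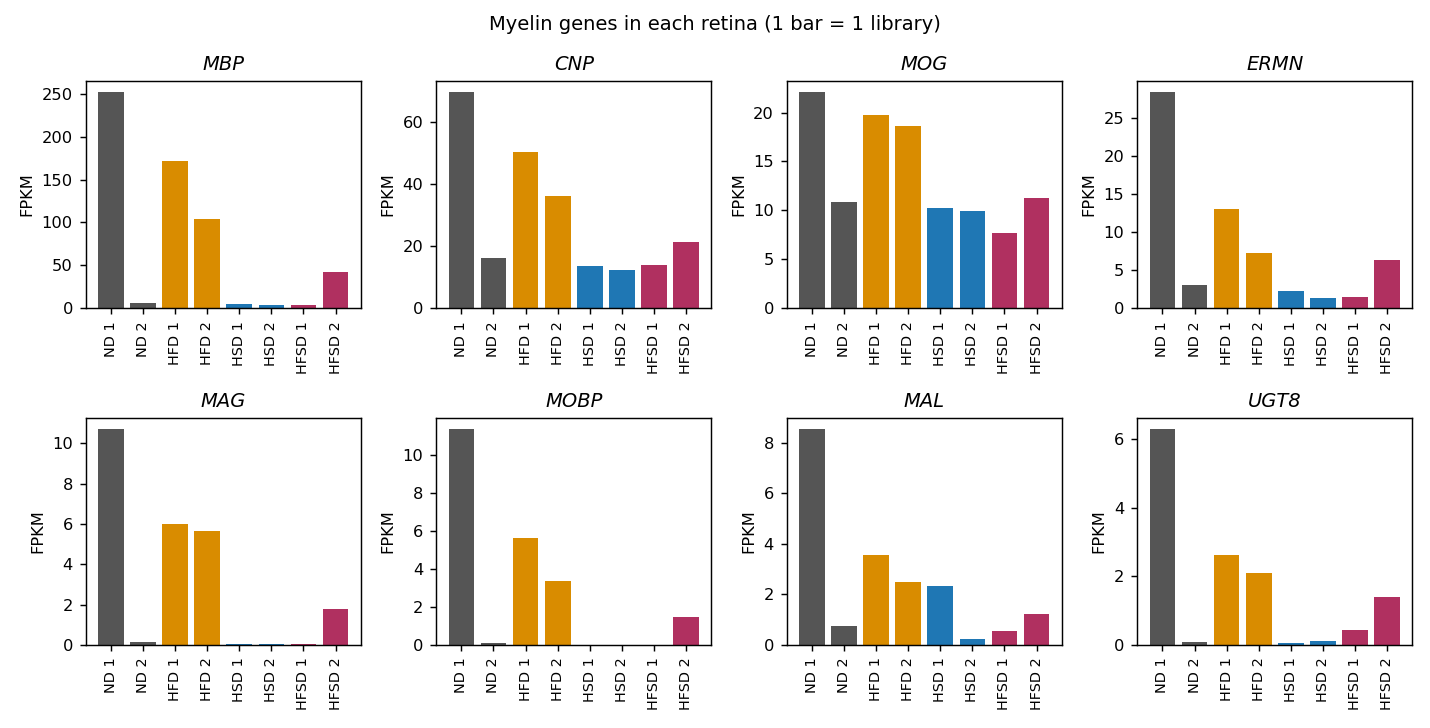
FPKM of the 8 myelin genes (y axis, linear from 0, a scale for each gene) in each retina (x axis, diet and replicate; 1 bar is 1 library). ND 1 is the highest bar in each panel, HFD 1 and HFD 2 follow, and ND 2 is near the HSD bars, as for MBP with 252 and 6.55 FPKM in ND.

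Across the 12204 genes tested, ND replicate 1 was the highest library for 9.98% of genes, and it was the highest for 8 of the 8 myelin genes. HFD replicate 1 came next and then HFD replicate 2 for each of the 8. HFSD replicate 2 followed for 7 of them, and for MAL HSD replicate 1 came before it. Below these, the order of ND replicate 2, both HSD retinas and HFSD replicate 1 varied from gene to gene, and the 95% Poisson intervals of neighbours often overlapped. For MBP, for example, the intervals were 5.35 to 7.92 FPKM in ND replicate 2, 3.33 to 5.56 FPKM in HSD replicate 1, 3.21 to 5.30 FPKM in HSD replicate 2 and 3.2 to 4.98 FPKM in HFSD replicate 1. These 4 retinas form the low end of the range, and 1 of them is an ND retina.

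The depth of the low end split the genes. In ND replicate 2, MOBP, MAG and UGT8 were at 1.06%, 1.27% and 1.24% of their level in ND replicate 1, and MBP at 2.59%. MAL was at 8.50%, ERMN at 10.5%, CNP at 23.3% and MOG at 48.9%. The lowest levels reached over the 8 retinas were 1.59% of the highest for MBP, 4.83% for ERMN, 17.6% for CNP and 34.6% for MOG. A residual level of CNP, MOG and MBP RNA was therefore measured in every retina, while MOBP and MAG were at 9 fragments or fewer in the 4 lowest retinas.

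With this, the order of the genes by FPKM, a level per length, changed with the retina. In ND replicate 1, both HFD retinas and HFSD replicate 2, MBP was the most abundant of the 8 and CNP the next. In ND replicate 2, both HSD retinas and HFSD replicate 1, CNP came first, then MOG and then MBP. The ratio of the FPKM of MBP to that of CNP was 3.62, 3.41, 2.87 and 1.96 in the first 4 retinas and 0.403, 0.318, 0.339 and 0.292 in the others.

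**Figure D2:**
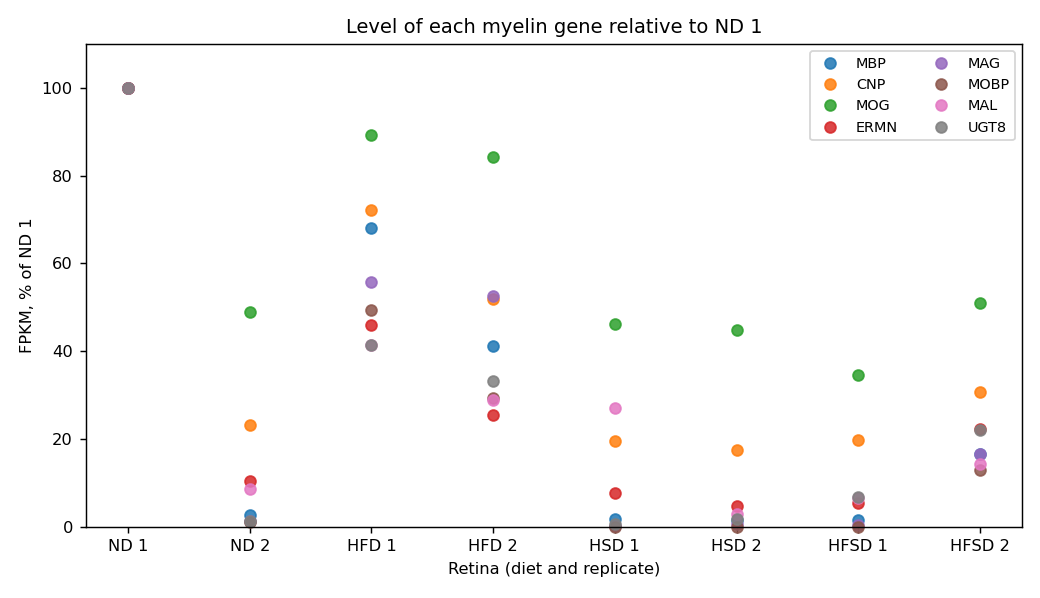
Level of each myelin gene as a percentage of its FPKM in ND 1 (y axis) in each retina (x axis, diet and replicate); each point is 1 gene in 1 library. In ND 2 the points run from 1.06% (MOBP) to 48.9% (MOG), and MOG and CNP keep the highest share in ND 2, HSD 2 and both HFSD retinas.

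The difference between the retinas of a diet was then measured for each diet, as the ratio of the higher to the lower FPKM, each plus 1. No test is possible for 1 retina against another. In ND the ratio was above 2 for 7 of the 8 genes, against 3.26% of all genes tested, and the median ratio was 7.08 over the myelin genes and 1.14 over all genes. It reached 33.6 for MBP, and MOG, at 1.96, was the gene under 2. Replicate 1 was higher for 8 of 8 (48.4% of all genes). The plain ratio of ND replicate 1 to ND replicate 2, without the added 1, was 94.6 for MOBP, 80.6 for UGT8, 78.6 for MAG, 38.6 for MBP, 11.8 for MAL, 9.50 for ERMN, 4.29 for CNP and 2.04 for MOG.

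In HFSD the ratio was above 2 for 4 of 8 genes (MBP, ERMN, MAG and MOBP), against 1.68% of all genes, with a median of 2.08 and a maximum of 8.54 for MBP. Here replicate 1 was higher for 0 of 8 (49.0% of all genes). In HFD 0 of 8 genes passed a ratio of 2 (2.19% of all genes), the median was 1.34 and the largest was 1.71 for ERMN, and replicate 1 was higher for 8 of 8 (52.6% of all genes). In HSD 1 gene passed it, MAL with 2.66 (2.06% of all genes), and the median was 1.05, with replicate 1 higher for 5 of 8 (51.4% of all genes). The other 4 genes of HFSD, with ratios of 1.42 to 1.68, were no further apart than ERMN in HFD.

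The effect of each diet was compared with ND in a limma model of all 8 libraries on log2(FPKM + 1), a scale that compresses differences between low FPKM values, with p values adjusted after Benjamini and Hochberg (BH) over the 12204 genes tested. The 3 comparisons share the ND retinas. None of the 8 genes was called in any diet at an adjusted p under 0.05, and 0 had an unadjusted p under 0.05. Over all genes, the calls of limma were 1 for HFD (0.00819%), 7 for HSD (0.0574%) and 2 for HFSD (0.0164%). The unadjusted p was under 0.05 for 4.31%, 7.2% and 8.07% of genes. A count of 0 calls is thus close to the background.

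In HFD, MBP was at 138±48.0 FPKM (s.d., n=2) against 129±174 FPKM in ND. Its log2 fold change was 1.62 (SE 1.56, BH-adjusted p=0.998 in limma). The difference was smaller than the spread between the ND retinas, and each HFD retina lay between them. For all 8 genes the HFD retinas overlapped the ND retinas in this way. The log2 fold changes had a median of 0.31, against 0.01 over all genes, with 6 genes above 0 and 2 (ERMN with -0.01 and MAL with -0.03) below, where 48.8% of all genes were below 0. For MOBP and UGT8 the direction differed by the measure: their log2 estimates were 0.53 and 0.25, whereas the mean FPKM was lower in HFD, with 4.48 against 5.75 FPKM in ND for MOBP and 2.36 against 3.2 FPKM for UGT8. By mean FPKM, 4 of 8 genes were thus lower in HFD (ERMN, MOBP, UGT8 and MAL). With a pseudocount of 0.1 the median was 0.77, and with voom, the form of limma for counts, on the recovered fragments it was 0.98. The HFD retinas lay both below or both above the ND retinas for 0 of 8 (13.3% and 12.5% of all genes).

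In HSD, MBP was at 4.25±0.129 FPKM (s.d., n=2), and the log2 fold change was -3.06 (SE 1.56, BH-adjusted p=0.762 in limma). The estimate was -1.97 for ERMN (SE 0.890), -1.90 for MOBP (SE 0.992), -1.81 for MAG (SE 0.965), -1.39 for UGT8 (SE 0.768), -1.32 for CNP (SE 0.574), -0.9985 for MAL (SE 0.775) and -0.58 for MOG (SE 0.303). All 8 estimates were below 0, with a median of -1.60 against -0.002 over all genes, of which 50.5% were below 0, and their BH-adjusted p in limma ran from 0.706 to 0.815. The median was -2.49 with a pseudocount of 0.1 and -2.81 with voom on fragments. The size of the estimate for the lowest genes rested on this choice: with a pseudocount of 0.1 and with voom it was -3.99 and -7.40 for MOBP, which had 0 fragments in both HSD retinas, -3.49 and -4.49 for MAG, -2.63 and -3.25 for UGT8, and -1.54 and -1.63 for MAL. Without ND replicate 1, UGT8 was at -0.00428. Both HSD retinas lay below both ND retinas for 6 genes (MBP, CNP, ERMN, MOG, MOBP and MAG), a pattern found in 19.7% of all genes. For 6 of these 6 genes the 95% Poisson intervals of ND replicate 2 and of at least 1 HSD retina overlapped, for MOBP and ERMN only just. UGT8 and MAL overlapped. For MBP the step between the groups was from 4.34 FPKM in HSD replicate 1 to 6.55 FPKM in ND replicate 2, small beside the distance between the ND retinas. Without HSD replicate 2, the library with muscle RNA, the median of the 8 genes was -1.59 and all 8 estimates were still below 0.

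In HFSD, MBP was at 23.0±26.8 FPKM (s.d., n=2), and the log2 fold change was -1.58 (SE 1.56, BH-adjusted p=0.822 in limma). The estimates were below 0 for all 8 genes, from -1.58 for MBP to -0.60 for UGT8 (-0.27 with a pseudocount of 0.1 and -0.06 with voom), with a median of -1.11 against -0.004 over all genes, of which 50.8% were below 0. Both HFSD retinas lay below both ND retinas for 0 of 8 genes, against 20.6% of all genes, and above them for 0 of 8, against 21.6%. In each gene HFSD replicate 2 was above ND replicate 2.

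**Figure D3:**
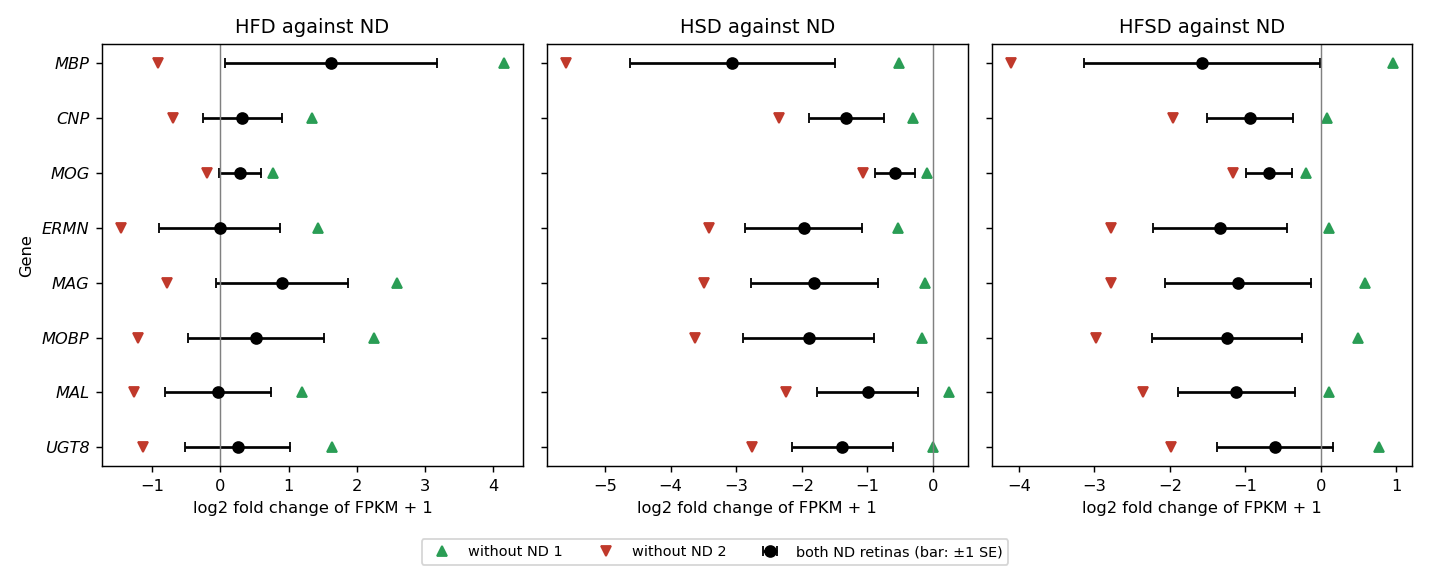
Log2 fold change of FPKM + 1 against ND (x axis) for each myelin gene (y axis) in the 3 diets. Black points are the estimates with both ND retinas (bars: 1 standard error either side), green triangles those without ND 1 and red triangles those without ND 2. For MBP in HSD these are -3.06, -0.52 and -5.59.

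The study selected genes by a fold of FPKM, each plus 1, with limits of 0.65 and 1.54, and this rule was applied here to the group means, which the sources used here do not specify. In HSD all 8 myelin genes passed the lower limit, against 2.42% of 19293 protein-coding genes, with folds from 0.0402 for MBP to 0.634 for MOG. In HFSD all 8 passed it too, against 2.4% of genes, with folds from 0.184 for MBP to 0.598 for MOG. In HFD 0 of 8 passed the lower limit (0.809% of genes) and 0 the upper limit (0.949%). The fold rule takes no account of spread, and with 2 retinas 1 high retina sets the ND mean.

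Leaving out ND replicate 1 moved every comparison. Without it, 0 of 8 genes passed the lower limit in HSD (2.42% of protein-coding genes), where the folds ran from 0.696 for MBP to 1.32 for MAL, and 0 of 8 in HFSD (2.62%). In HFD all 8 then passed the upper limit (2.32% of protein-coding genes), with a fold of 18.4 for MBP and 1.71 for MOG, and in HFSD 4 did (MBP, MOBP, UGT8 and MAG), against 3.6%. The median log2 fold change of the 8 genes became 1.53 for HFD, -0.14 for HSD and 0.30 for HFSD. Without ND replicate 2, in contrast, the medians were -1.02, -3.09 and -2.57, and 7 of 8 genes passed the lower limit in HFD (2.16% of protein-coding genes). Without HFD replicate 1, 3 of 8 did (ERMN, MOBP and MAL), against 1.77%. The direction of the median in HFD and in HFSD therefore depended on which ND retina was used, while in HSD it was below 0 with either. By gene, MAL in HSD was at 0.24 without ND replicate 1, and MOG in HFSD was below 0 with either ND retina (-0.20 and -1.17).

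The design also crosses fat with sucrose. Averaged over fat, the log2 difference between diets with and without sucrose was below 0 for all 8 genes, with a median of -1.47 against -0.007 over all genes, of which 51.3% were below 0. It was -3.13 for MBP (SE 1.10), -1.91 for MAG (SE 0.682), -1.83 for MOBP (SE 0.702), -1.29 for CNP (SE 0.406) and -0.77 for MOG (SE 0.214). None was called, and BH-adjusted p in limma ran from 0.157 to 0.348. At an unadjusted p under 0.05 there were 6 of 8 (MBP, CNP, ERMN, MOG, MOBP and MAG), against 18.3% of all genes, and 9.16% of all genes had such a p with a difference below 0. Limma called 42 of all genes (0.344%). The retinas with sucrose did not lie below all those without for any of the 8 (6.48% of all genes), because HFSD replicate 2 was above ND replicate 2 throughout.

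Without ND replicate 2, 5 of 8 genes were called for sucrose (CNP, MAG, MOBP, UGT8 and MOG), with BH-adjusted p in limma from 0.0257 to 0.0480, where 0.59% of all genes were called in the same fit. Without ND replicate 1, 0 were called (0.672% of all genes) and the median was -0.86. The fat effect had a median of 0.44, from -0.08 for MAL to 1.55 for MBP, with 1 gene below 0 (47.4% of all genes). This median was 1.12 without ND replicate 1 and -0.16 without ND replicate 2. The interaction of fat and sucrose had a median of -0.02, with 4 genes below 0 (48.1% of all genes). Limma called 0 of 8 genes for either, with 0 of 8 at an unadjusted p under 0.05 (3.2% and 3.74% of all genes).

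A wider list of 30 genes of oligodendrocytes, written from general knowledge, was read from the same fit. It holds other sheath proteins, gap junction proteins and transcription factors of the lineage. Of these, 22 were found and 20 tested. In HFD 8 of 20 estimates were below 0, in HSD 19 and in HFSD 18, with medians of 0.12, -0.66 and -0.78, and limma called 0 in each, with 0, 4 and 2 at an unadjusted p under 0.05. Over all genes 48.8%, 50.5% and 50.8% were below 0, and 4.31%, 7.2% and 8.07% had such a p. For sucrose the median was -0.82, with 18 of 20 below 0 (51.3% of all genes), 0 called and 13 at an unadjusted p under 0.05 (18.3% of all genes). Without ND replicate 1 the medians against ND were 0.83, -0.01 and 0.13, and without ND replicate 2 they were -0.65, -1.41 and -1.20, so that these genes too followed the ND retina used. In the sucrose comparison 1 gene of 20 was called without ND replicate 1 (0.672% of all genes) and 7 without ND replicate 2 (0.59% of all genes). With voom the medians of the list were 0.24 in HFD, -0.99 in HSD and -1.31 for sucrose, and with a pseudocount of 0.1 the median in HFD was 0.24.

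TF and GPR37, abundant genes of that list that other cells express as well, did not keep the order of the myelin genes. TF, the iron carrier transferrin, was at 828 FPKM in ND replicate 1 and 2014 FPKM in ND replicate 2, and GPR37, a receptor, at 46.3 and 60.0 FPKM.

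The 10 genes with a symbol whose log2(FPKM + 1) followed the mean of the myelin genes most closely over the 8 libraries were PLLP, BCAS1, GJB1, EFHD1, SLAIN1, ENPP6, SOX10, CNDP1, ERBB3 and OPALIN, with Pearson r from 0.983 to 0.994. The correlation is a description over libraries that fall into a high and a low set. Of the 10, 6 stand on the oligodendrocyte list. PLLP, a membrane protein of myelin, was at 11.7 FPKM in ND replicate 1, 0.222 FPKM in ND replicate 2, 0.143 and 0.261 FPKM in HSD, and 2.07 FPKM in HFSD replicate 2. SOX10, the transcription factor of the oligodendrocyte lineage, was at 4.82 and 0.664 FPKM in ND, 2.34 and 2.12 FPKM in HFD, 0.278 and 0.334 FPKM in HSD, and 0.324 and 1.11 FPKM in HFSD. Among the myelin genes themselves r with the mean, of which each is a part, ran from 0.890 for MAL and 0.953 for MOG to 0.998 for MOBP.

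Schwann cells make peripheral myelin. Of 10 genes of these cells 9 were found and 4 tested. PMP22, which other cells make as well, was at 10.8 FPKM in ND replicate 1 and 0.834 FPKM in ND replicate 2. Of the 4 tested, 1 passed a ratio of 2 between the ND retinas (3.26% of all genes). Limma called 0 of the 4 against ND for each diet, where the shares of all genes called were 0.00819% (HFD), 0.0574% (HSD) and 0.0164% (HFSD). Of 12 genes of oligodendrocyte precursors 11 were found and 6 tested. Over these 6, the median difference between ND replicate 1 and ND replicate 2 was 0.11 on the log2 scale, against 2.82 for the myelin genes. A ratio of 2 was passed by 0 of the 6 (3.26% of all genes). The 6 are led by MYT1, TNR and PCDH15, genes that neurons express as well. PDGFRA, also among the 6 and named after its values were seen, was at 3.18 and 1.69 FPKM in ND. Among the 5 below the filter, named after their values were seen, CSPG4 was at 0.798 and 0.0721 FPKM in ND, GPR17 at 0.685 and 0.0541 FPKM, NEU4 at 0.603 and 0 FPKM, and VCAN at 0.574 and 0.172 FPKM. These low genes were thus higher in ND replicate 1, as the myelin genes were, but GPR17 and NEU4 had at most 14 and 13 fragments in any library.

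Astrocytes share the medullary rays with the sheaths. GFAP, the filament protein of astrocytes, was at 524 and 12.1 FPKM in ND, 216 and 203 FPKM in HFD, 2.37 and 1.08 FPKM in HSD, and 3.05 and 69.5 FPKM in HFSD, with the same 4 retinas high as for MBP. PAX2, a transcription factor of astrocytes of the optic nerve and retina, named after its values were seen, was at 2.58 FPKM in ND replicate 1, 0.0191 FPKM in ND replicate 2, 0.814 and 0.687 FPKM in HFD and 0.193 FPKM in HFSD replicate 2, and had 0 fragments in the other 3. In HFD replicate 1 and 2, GFAP stood at 41.2% and 38.7% of ND replicate 1, and MBP at 68.0% and 41.1%. Not all astrocyte genes went with it: S100B was at 583 and 362 FPKM in ND, and ID3, a target of BMP signals, at 61.3 and 65.4 FPKM. Of 8 tested genes of the list, of 10 found, ND replicate 1 was highest for 4 (9.98% of all genes). Summed over the 10, the level was 1251 and 481 FPKM in ND, 1103 and 874 FPKM in HFD, 515 and 350 FPKM in HSD, and 377 and 507 FPKM in HFSD. GJA1, a gap junction protein, was the gene of the 14 lists that limma called for sucrose, where it was lower (-2.80, BH-adjusted p=0.0311), at 36.0 and 14.1 FPKM in ND, 11.7 and 10.1 FPKM in HFD, 0.442 and 1.06 FPKM in HSD, and 1.26 and 3.97 FPKM in HFSD. Against ND, 0 genes of each list were called in any diet.

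Listed genes of the sheathed axon differed less between the ND retinas, and which cells their RNA came from was not tested. Of 14 genes of nodes and paranodes, the sites where axon and sheath join, 13 were found and tested, and 0 passed a ratio of 2 between the ND retinas (3.26% of all genes). ND replicate 1 was the higher for 10 of the 13 (48.4% of all genes). Named after their values were seen, SCN1A was at 12.4 and 6.09 FPKM in ND, and KCNA1, in the other direction, at 2.61 and 5.58 FPKM. CADM3, an adhesion protein of axons, was at 90.6 and 68.2 FPKM in ND and at 100.1 and 90.7 FPKM in HSD. Ganglion cell genes were lower in ND replicate 2 than in ND replicate 1 for all 11 tested (48.4% of all genes had replicate 1 higher). Their median difference was 0.79 on the log2 scale, and 4 were past a ratio of 2 (3.26% of all genes). Their summed level was 994 and 617 FPKM in ND, 957 and 764 FPKM in HFD, 699 and 610 FPKM in HSD, and 881 and 1005 FPKM in HFSD. The sum was led by SNCG, NEFL and THY1, and although it was close in HSD replicate 2 and ND replicate 2, 8 of the 11 genes were higher in HSD replicate 2. SLC17A6, the glutamate transporter of ganglion cells, named after its values were seen, was at 24.8 and 9.21 FPKM in ND, 18.0 and 16.5 FPKM in HSD, and 23.4 FPKM in HFSD replicate 1.

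Vessels lie in the rays as well. CLDN5, the claudin of barrier endothelium, was at 28.0 and 1.03 FPKM in ND, 20.3 and 6.76 FPKM in HFD, 1.16 and 0.794 FPKM in HSD, and 0.534 and 6.85 FPKM in HFSD. RGS5, a marker of pericytes, was at 8.97 and 0.184 FPKM in ND, 3.58 and 3.38 FPKM in HFD, 0 and 1.32 FPKM in HSD, and 0.0475 and 2.27 FPKM in HFSD. CLDN5 kept the same 4 retinas at the top as MBP. KDR, a receptor of vascular growth factor, in contrast was at 75.8 and 126 FPKM in ND and at 124 and 102 FPKM in HSD. Of the 11 endothelial genes found, VWF and CDH5, named after their values were seen, had 0 fragments in HSD replicate 1 and HFSD replicate 1, and VWF was at 3.77 and 0.00648 FPKM in ND. PECAM1, TEK and ERG, also named after their values were seen, were at 1.625 and 0.0485, 0.894 and 0.0290, and 0.433 and 0 FPKM in ND. FLT1, like KDR, was lower in ND replicate 1, at 18.35 and 22.41 FPKM. PECAM1 averaged 0.537 FPKM over the libraries and KDR 113 FPKM. Which cells the KDR RNA came from was not tested. The 11 summed to 137 and 159 FPKM in ND, 171 and 172 FPKM in HFD, 155 and 131 FPKM in HSD, and 169 and 130 FPKM in HFSD, with KDR the largest part. The 7 mural genes found summed to 20.0 and 6.81 FPKM in ND, 10.6 and 13.8 FPKM in HFD, 3.71 and 24.8 FPKM in HSD, and 5.69 and 8.19 FPKM in HFSD. In HSD replicate 2, the library with skeletal muscle RNA, 15.8 FPKM of this sum was DES, the desmin of muscle cells, which was at 0.203 FPKM or less in the other libraries. Over the lists, 4 of 7 tested endothelial and 2 of 5 tested mural genes passed a ratio of 2 between the ND retinas (3.26% of all genes). ND replicate 1 was the higher for these mural genes and for 3 of the 4 endothelial genes, and the lower for MFSD2A, a lipid transporter of barrier endothelium, with 2.41 and 7.19 FPKM.

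Between the ND retinas the median log2 difference, replicate 1 minus replicate 2, was 2.82 for the myelin genes, 1.56 for the oligodendrocyte list, 0.99 for astrocytes, 0.60 for mural cells, 0.56 for endothelium and for Schwann cells, 0.42 for microglia, 0.25 for nodes, -0.29 for Müller cells, -0.20 for rods, -0.09 for pigment epithelium and -0.01 over all genes tested. Between the HFSD retinas it was -1.03 for the myelin genes, -0.28 for the oligodendrocyte list, -0.17 for astrocytes and 1.06 for pigment epithelium. Of these lists the myelin genes differed most between the ND retinas, while between the HFSD retinas pigment epithelium genes differed by as much, in the other direction. The part of astrocytes, vessels, ganglion cells and pigment epithelium in the differences of the myelin genes was not tested.

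**Figure D4:**
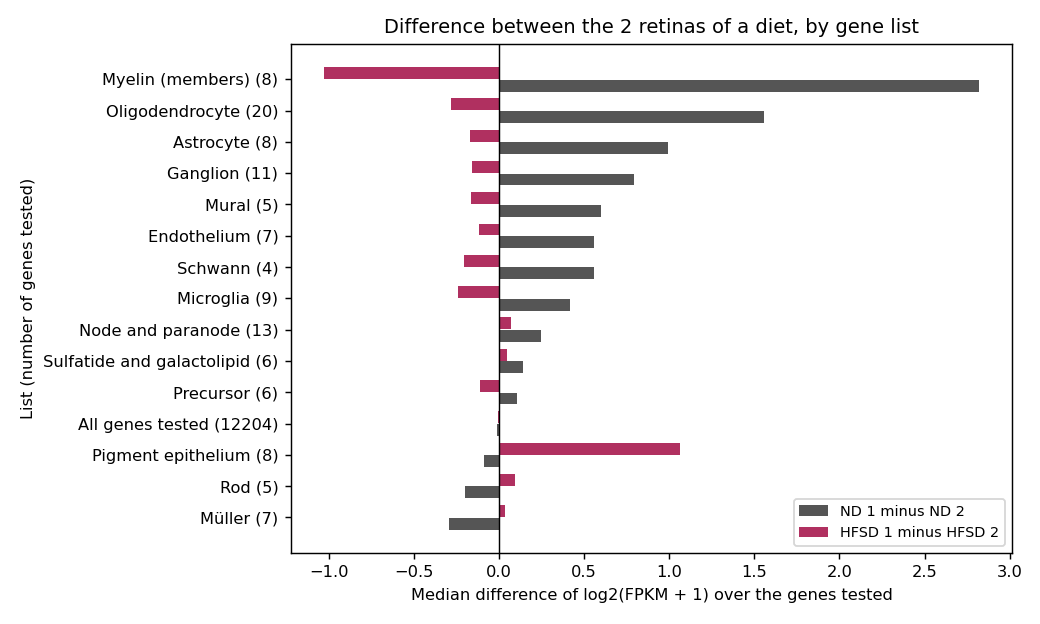
Median difference of log2(FPKM + 1) between replicate 1 and replicate 2 (x axis) for lists of genes (y axis, number of genes tested in brackets), in ND (grey) and HFSD (red). The myelin genes have the longest bars in ND (2.82), and all genes tested lie at -0.01.

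Of 9 listed genes for making or breaking down the galactolipids of myelin, 7 were found and 6 tested, UGT8 among them. GAL3ST1, which adds sulfate to the product of UGT8, was below the filter, at 1.55 and 0.324 FPKM in ND and from 0.142 to 0.539 FPKM elsewhere. PSAP, the precursor of lysosomal activator proteins, was at 431 and 409 FPKM in ND and 316 and 259 FPKM in HSD, SPTLC2, of the first step of sphingolipid synthesis, at 11.8 and 12.5 FPKM in ND, and CERS2, a ceramide synthase, at 10.5 and 8.93 FPKM in ND. PSAP, SPTLC2 and CERS2 therefore did not share the gap between the ND retinas that UGT8 showed. All 6 estimates were below 0 in HSD and in HFSD, with medians of -0.33 and -0.38, against 50.5% and 50.8% of all genes below 0. Limma called 0 in each, with 3 at an unadjusted p under 0.05 in each (7.2% and 8.07% of all genes).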

How the data were processed

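After a FastQC check and trimming, the authors aligned reads with TopHat2, left out reads with several placements and computed FPKM per gene in an R script of their own. The deposited table, named for counts, holds these FPKM values for 8 libraries. Genome build and annotation are not given in the sources used here, so no coordinates or sequences are shown. No value column lacked a sample (0 columns). Whole fragments, depths and gene lengths were recovered from the FPKM steps (99.99% of values above 0 came out whole).

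The test was limma 3.58.1 (R 4.3.3), with its trend option and Benjamini-Hochberg adjustment, in 1 model of the 4 diets. It took log2(FPKM + 1) of protein-coding genes that reached 1 FPKM in 2 or more libraries. The step was tested on simulated data. Fold limits were 0.65 and 1.54. Alternatives were a pseudocount of 0.1, no filter, upper-quartile scaling, quantile normalization, fits of the groups compared, a replicate block, each retina left out and, chosen after seeing the data, voom on fragments. Besides the 8 myelin genes, the naming rule took list genes with an adjusted p under 0.05 in a diet, the 3 most abundant tested genes of each list, and the 10 genes most alike. Of these, only genes that a result turns on are named. GJA1, GAL3ST1, TYR, MITF, BEST1, MFSD2A and DES, and others marked in the text, were named outside this rule after their values were seen. The members and lists, 14 lists of other genes in all, were chosen with earlier results of these data known. Some genes of the lists are not reported here.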

Additional observations from a re-analysis of the deposited data

How the results depend on the processing

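With 2 retinas per diet, 1 retina can decide a mean, and genes under about 10 fragments give no order among the low retinas. Over pseudocount 0.1, no filter, both scalings, fits of only the groups compared, 2 groups of 4 libraries, the replicate block and voom, 0 myelin genes were called in any comparison. The fold rule selected 1 gene as lower in HFD with pseudocount 0.1 and with upper-quartile scaling, where 0 had passed. With a limit of 1.5 on the ratio between retinas, 8 myelin genes passed it for ND, 6 for HFSD, 3 for HFD and 1 for HSD. At the limit of 2 these counts were 7, 4, 0 and 1. Over all genes the 95th percentile of the ratio was 1.78 for ND, 1.51 for HFSD, 1.71 for HFD and 1.59 for HSD. The share of all genes past 1.5 was not computed. With pseudocount 0.1 and voom the medians of the myelin genes were 0.77 and 0.98 in HFD, -2.49 and -2.81 in HSD, -1.53 and -1.66 in HFSD, -2.01 and -2.27 for sucrose, and 1.04 and 0.94 for fat. In HFD, with pseudocount 0.1 and voom, MAL became 0.19 and 0.19 and ERMN 0.0647 and 0.0600. The replicate numbers do not pair the retinas: the differences between replicates 1 and 2 correlated between diets by -0.165 to 0.0813 over 12204 genes. The replicate block left 0 genes called. It could not move the medians (0.31, -1.60 and -1.11), because each diet holds both replicate numbers.

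When single retinas were left out, the fold rule selected 0 to 7 genes as lower and 0 to 8 as higher in HFD, 0 to 8 as lower in HSD, and 0 to 8 as lower and 0 to 4 as higher in HFSD. Medians ran from -1.02 to 1.53 in HFD, from -3.09 to -0.14 in HSD, from -2.57 to 0.30 in HFSD, from -0.16 to 1.12 for fat and from -1.14 to 1.68 for the interaction, and for the oligodendrocyte list in HFSD from -1.20 to 0.13. Calls for sucrose ran from 0 to 5 myelin genes and from 0 to 7 of the list. In HFD the log2 fold change ran from -0.91 to 4.16 for MBP, -1.21 to 2.26 for MOBP, -0.78 to 2.58 for MAG, -0.20 to 0.77 for MOG, -0.69 to 1.34 for CNP, -1.13 to 1.64 for UGT8, -1.27 to 1.20 for MAL and -1.45 to 1.43 for ERMN. In HSD it ran from -5.59 to -0.52 for MBP, -3.63 to -0.16 for MOBP, -3.49 to -0.12 for MAG and -1.06 to -0.09 for MOG. For CNP it ran from -2.34 to -0.30, for UGT8 from -2.77 to -0.00428, for ERMN from -3.41 to -0.53 and for MAL from -2.23 to 0.24. In HFSD it ran from -4.11 to 0.96 for MBP, -2.97 to 0.49 for MOBP, -2.79 to 0.58 for MAG, -1.96 to 0.0766 for CNP, -1.99 to 0.78 for UGT8, -2.36 to 0.11 for MAL and -2.78 to 0.10 for ERMN. The cause was not tested.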
